A study of Taeniopygia guttata with 2 samples.

Results

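The genes described here are the WNT pathway ligands, receptors, agonists, inhibitors and TCF/LEF transcription factors of the embryonic zebra finch gonad. They were taken by symbol, as every gene whose name starts with WNT, FZD, SFRP, DKK, RSPO, LGR, AXIN, TCF7 or LEF1, with WNT4 left out, which gave 41 of the 20511 genes in the files. By role, 17 are WNT ligands, 6 are Frizzled receptors, 4 are R-spondins, 3 are LGR receptors of R-spondins, 6 are secreted inhibitors or modulators of the SFRP and DKK families, 2 are Axins and 3 are TCF/LEF factors. The study dissociated whole gonads of female and of male zebra finch (Taeniopygia guttata) embryos at Hamburger-Hamilton (HH) stage 28, untreated and unsorted. Same-sex gonads, 7 female and 7 male, made 1 pool each, and each pool gave 1 single-cell library on the 10× Chromium system. Sex and library cannot be told apart, and the values of single embryos cannot be recovered from a pool.

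WNT proteins are secreted, lipid-modified signals that bind Frizzled receptors on nearby cells. In the canonical branch the Axin scaffold no longer directs the breakdown of β-catenin, which then acts with TCF/LEF factors on target genes, and AXIN2 and LEF1 are themselves well-known targets in vertebrates. R-spondins bind LGR receptors and raise the amount of Frizzled at the cell surface, SFRP proteins bind WNTs outside the cell, and DKK1 blocks the LRP co-receptors. In the mouse, RSPO1 is needed for ovary formation, WNT5A acts mostly outside the β-catenin branch, and WNT signals support germ cell migration and survival.

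The female library had 7593 and the male library 9461 barcodes with at least 2000 UMIs (unique molecular identifiers, which count captured mRNA molecules), with medians of 9126 and 9027 UMIs per barcode. Only 18 barcode sequences occurred in both libraries. Genes annotated to the Z chromosome in the bTaeGut7.mat assembly, of which avian females carry a single copy, had a median log2 female over male ratio of -0.80 (456 genes), against -0.02 for 8527 genes elsewhere, so the libraries matched the sex assigned to them by barcode suffix. Barcodes were placed in 10 classes by marker genes, none of them a WNT pathway member, and the classes are called "-like" for that reason. Germ cell-like barcodes numbered 481 female and 709 male, epithelial-like 1569 and 1756, supporting-like 490 and 1151, steroidogenic-like 1242 and 783, interstitial-like 1066 and 1776, endothelial-like 186 and 353, macrophage-like 85 and 104, neural-like 61 and 33, erythrocyte-like 244 and 255, and mesonephric-like 24 and 100. The other 4586 barcodes (26.9%) fitted no class or more than 1. The supporting-like and steroidogenic-like classes are ranges of a score and not separate types: 1608 barcodes lay within 0.1 of the margin between the somatic scores, and the median male steroidogenic-like barcode still held 541 CPM (UMIs scaled to 1e+06 per sum or barcode) of the summed supporting markers, against 100.2 CPM in the female one. The neural-like class was high in CHGA (7096 CPM female, 6923 CPM male) and TH but held the glial gene SOX10 at 8.23 and 2.16 CPM only. Of the mesonephric-like barcodes, the male ones lay mostly in cluster 20 (82 of 100), which held 98 male barcodes and 1 female barcode, with 384 CPM of LHX1, whereas the female ones had 72.8 CPM and lay most often in cluster 8 (11 of 24), a cluster of supporting-like barcodes, so the class is not the same population in both libraries.

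UMIs were summed by class and library, and a class was then set against the average log2 level of the remaining classes, with the 2 libraries as replicates (edgeR's quasi-likelihood test, Benjamini-Hochberg adjusted over all 13435 genes that passed the filter on low counts). Nothing tells whether the spread between the libraries is that of sex, of embryos or of preparation. Of the 41 members, 30 passed the filter. A gene passed with enough UMIs in 2 sums. The low members SFRP4, WNT10A, WNT7B, LGR5, RSPO1 and RSPO4 passed mainly through classes where they were highest. Their calls there are no support beyond the levels. WNT3 and WNT8B had no UMI in any kept barcode, which allows up to 0.0383 CPM (female) and 0.0313 CPM (male), and WNT9B had 1 UMI, WNT3A 4, WNT8A 7, WNT7A 9, FZD8 13, WNT1 36 and WNT2 55 UMIs. LGR6 and DKK1 also stayed under the filter, and the highest level among these 11 members was 3.92 CPM, that of DKK1, a secreted inhibitor, in male interstitial-like cells (1.89 CPM in female ones). The 9 ligands that passed were WNT2B, WNT5A, WNT5B, WNT6, WNT7B, WNT9A, WNT10A, WNT11 and WNT16.

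**Figure D1:**
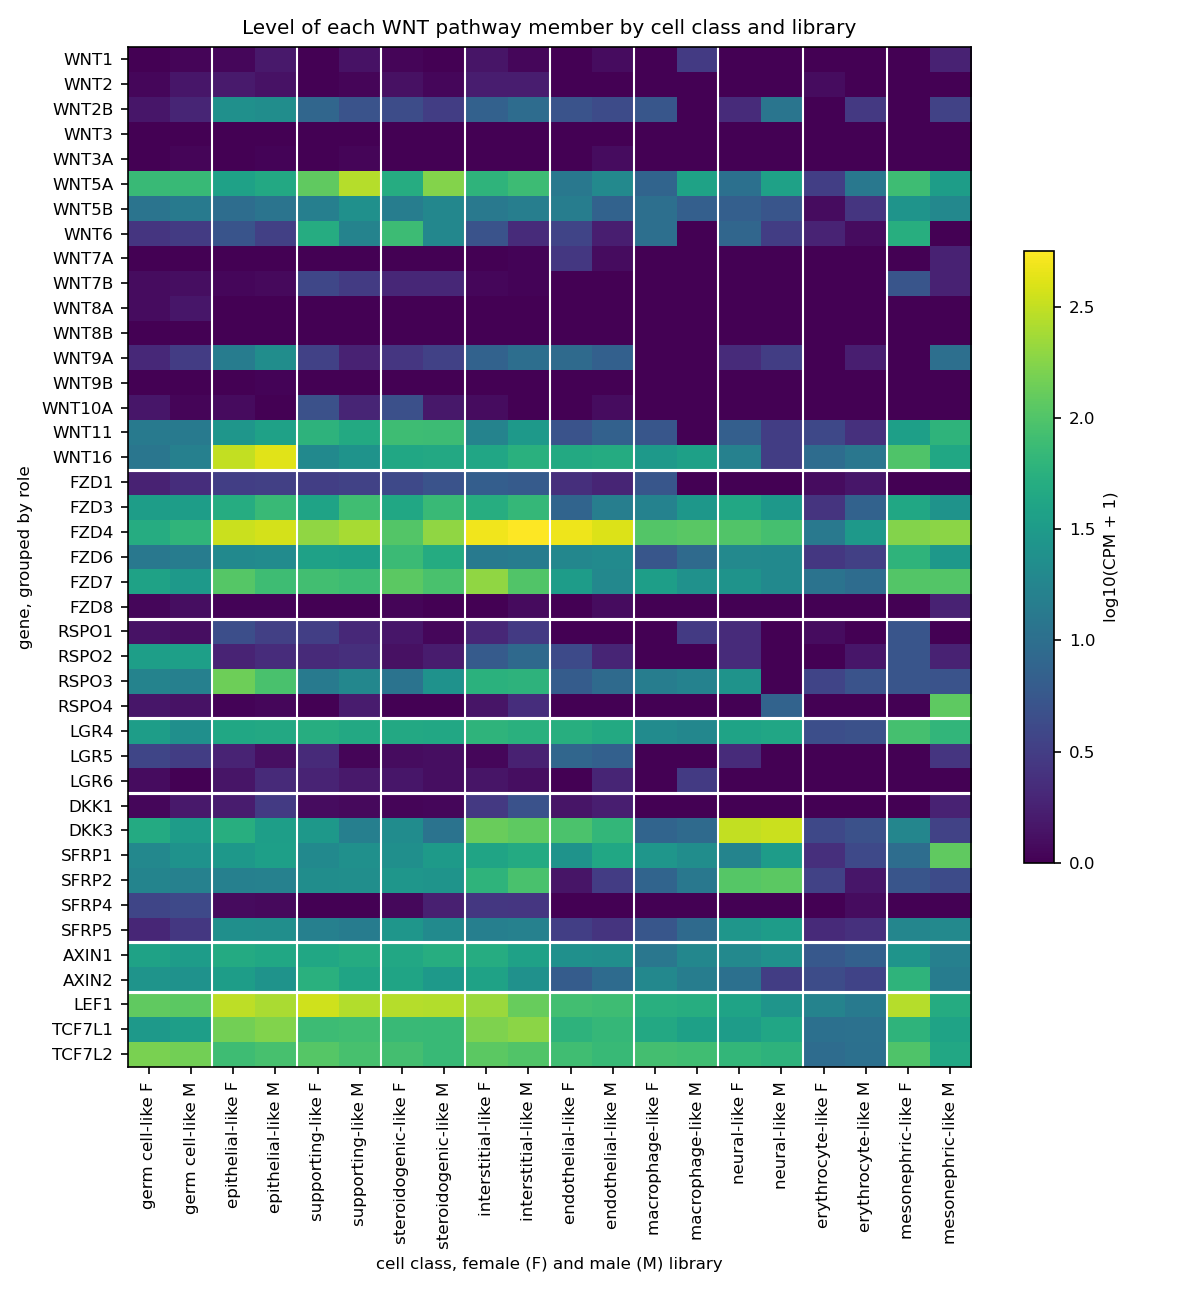
Level of all 41 members (rows, grouped by role with white lines) in the 10 classes, female (F) left of male (M), as log10(CPM + 1) from summed UMIs. FZD4 in interstitial-like cells (489 and 562 CPM) and WNT16 in epithelial-like cells (313 and 419 CPM) stand out in both libraries, while WNT3 and WNT8B are at 0 throughout.

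Over the 300 pairs of a member and a class, 68 were called higher (beside 15.1% of all gene and class pairs) and 39 lower (beside 8.77% of all pairs) at an adjusted p of at most 0.05. Since the pairs of 1 gene depend on each other, these shares describe the list and test nothing. By class, members called higher numbered 14 of 30 in interstitial-like cells (15.9% of all genes), 13 in steroidogenic-like (12.5%), 12 in epithelial-like (13.1%), 9 in supporting-like (9.48%), 7 in mesonephric-like (9.62%), 5 in endothelial-like (16.8%), 4 in germ cell-like (33.6%), 3 in neural-like (14.7%), 1 in erythrocyte-like (13.0%) and none in macrophage-like cells (12.4%). Members called lower numbered 8 each in germ cell-like (21.5% of all genes), endothelial-like (10.4%) and macrophage-like cells (8.26%) and 7 in neural-like cells (9.68%), against none in epithelial-like (6.36%) and 1 each in supporting-like (4.57%), steroidogenic-like (6.43%), interstitial-like (6.86%) and erythrocyte-like cells (9.45%), with 4 in mesonephric-like cells (4.22%). The mesonephric-like calls rest on populations that differed between the libraries. In neural-like cells the lower calls of FZD4 and TCF7L1 turned round when classes were drawn from clusters of barcodes. The median log2 fold change of the 30 members was 0.70 in steroidogenic-like, 0.63 in interstitial-like, 0.55 in supporting-like and 0.53 in epithelial-like cells, where that of all genes lay between 0.04 and 0.06, and it was -1.03 in macrophage-like, -0.49 in neural-like and -0.32 in germ cell-like cells, where that of all genes was -0.17, -0.11 and 0.14. Higher calls of the members thus fell mostly on the 4 gonadal somatic classes.

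**Figure D2:**
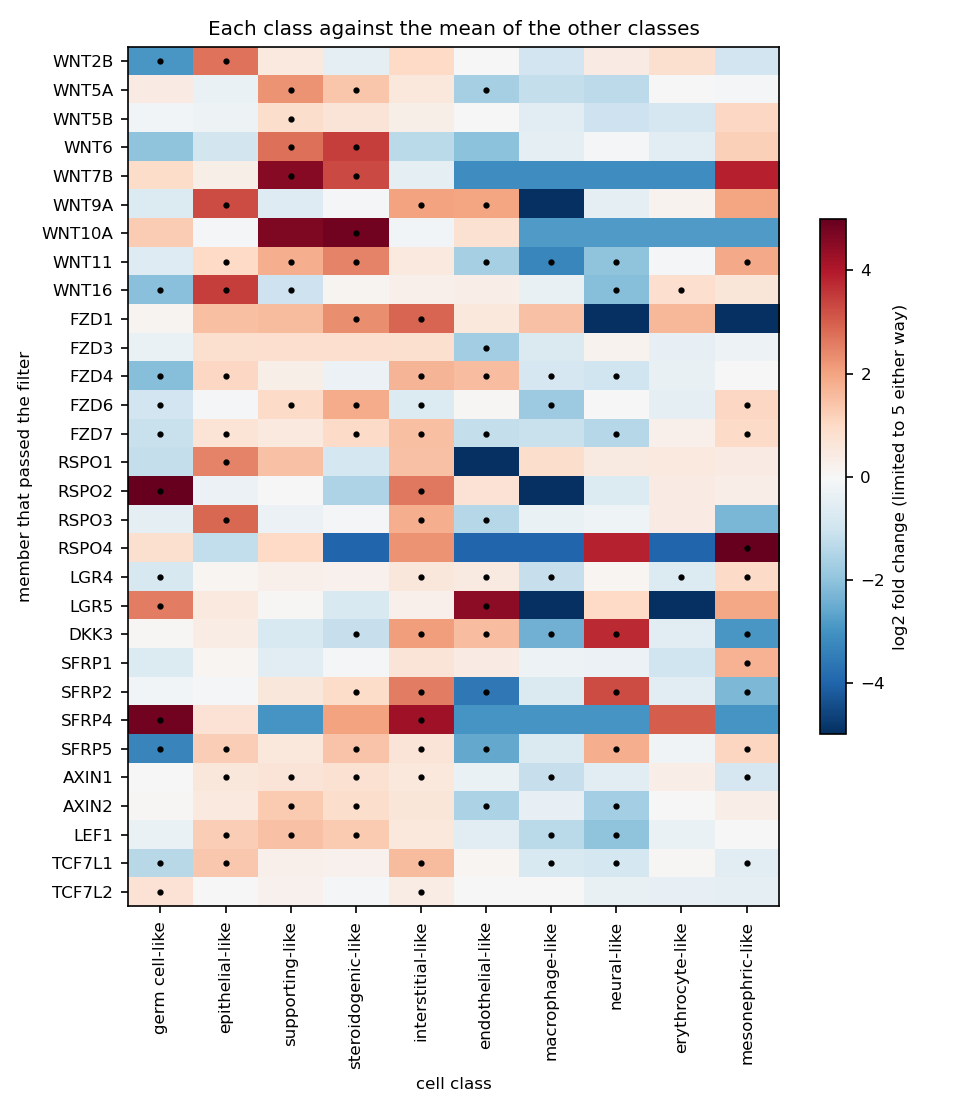
Log2 fold change of each class against the mean of the other classes for the 30 members that passed the filter, with a dot on each of the 107 calls at an adjusted p of at most 0.05 and colours limited to 5 either way. Members called higher cluster in the interstitial-like, steroidogenic-like, epithelial-like and supporting-like columns. Dark cells without a dot are low genes with 0 UMIs in some sums.

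Among the ligands, WNT16 marked the epithelial-like class. WNT16 had 313 CPM in female and 419 CPM in male epithelial-like cells, and the next level was 98.6 CPM in the 24 female mesonephric-like barcodes and 55.3 CPM in male interstitial-like cells. Its log2 fold change was 3.44 ± 0.16 (SE, adjusted p = 4.3e-09, edgeR), and every other class of both libraries lay below both epithelial-like values. With all barcodes thinned to 2000 UMIs, 44.8% of epithelial-like barcodes held a WNT16 UMI, against 2.0% of erythrocyte-like barcodes (78.6% and 7.21% before thinning, at medians of 9274 and 18651 UMIs). The summed erythrocyte markers took a median of 412154 CPM (female) and 420969 CPM (male) of erythrocyte-like barcodes. That leaves fewer UMIs for other genes, so the erythrocyte-like shares, here and below, do not measure background. WNT16 had 45.4 and 47.6 CPM in endothelial-like and 29.3 and 35.3 CPM in macrophage-like cells. WNT2B (23.1 CPM female, 21.3 CPM male, log2 fold change 2.72 ± 0.39, adjusted p = 1.6e-04) and WNT9A (13.1 and 21.4 CPM, 3.26 ± 0.46, adjusted p = 1.6e-04) were also called higher there, both by edgeR. WNT2B was not spread evenly over the epithelial-like cells. In cluster 3 of a clustering drawn without the pathway genes, WNT2B reached 46.8 CPM (female) and 55.2 CPM (male), against 9.57 and 6.74 CPM in cluster 1, whereas WNT16 had 293 and 307 CPM in cluster 3 and 351 and 502 CPM in cluster 1, and WNT9A 17.3 and 21.9 CPM and 13.0 and 24.2 CPM. WNT16 was not even over the class either, with 116 and 178 CPM in cluster 2 (65 female and 77 male epithelial-like barcodes). WNT9A was further called higher in interstitial-like cells (6.35 CPM female, 8.89 CPM male) and endothelial-like cells (8.01 and 5.96 CPM).

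WNT5A, WNT6 and WNT11 were called higher in the supporting-like and steroidogenic-like classes. WNT5A had 118 CPM in female and 276 CPM in male supporting-like cells (log2 fold change 2.24 ± 0.38, adjusted p = 9.8e-04, edgeR), its highest class in both libraries, with 48.9 and 174 CPM in steroidogenic-like and 71.6 and 70.9 CPM in germ cell-like cells. In the female library its steroidogenic-like level lay below the germ cell-like, interstitial-like (60.5 CPM) and mesonephric-like (77.1 CPM) levels. WNT5A UMIs were on 31.5% of supporting-like barcodes after thinning, against 1.20% of erythrocyte-like ones (66.8% and 5.21% before). WNT11, which acts in cell movement in many vertebrate tissues, had 77.4 CPM (female) and 75.5 CPM (male) in steroidogenic-like cells (2.50 ± 0.24, adjusted p = 6.9e-06), then 59.4 and 45.7 CPM in supporting-like cells, and the male mesonephric-like barcodes held 60.9 CPM. WNT6 had 76.2 CPM in female and 17.7 CPM in male steroidogenic-like cells (3.44 ± 0.58, adjusted p = 6.6e-04) and 49.6 and 15.9 CPM in supporting-like cells (2.76 ± 0.63, adjusted p = 0.0080), and was at most 9.01 CPM in every other class except the female mesonephric-like one (51.4 CPM). WNT7B (2.88 CPM female, 2.004 CPM male) and WNT5B (14.4 and 23.1 CPM) were low and called higher in supporting-like cells. WNT10A, which lies next to WNT6 in bTaeGut7.mat, had 3.70 and 0.506 CPM in steroidogenic-like cells (adjusted p = 0.025) and 3.77 and 0.911 CPM in supporting-like cells, where it passed only with the library as a block (adjusted p = 0.0021, against 0.053 without). WNT10A passed the filter on low counts only through the female sums of these classes, so these calls add nothing to its levels.

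**Figure D3:**
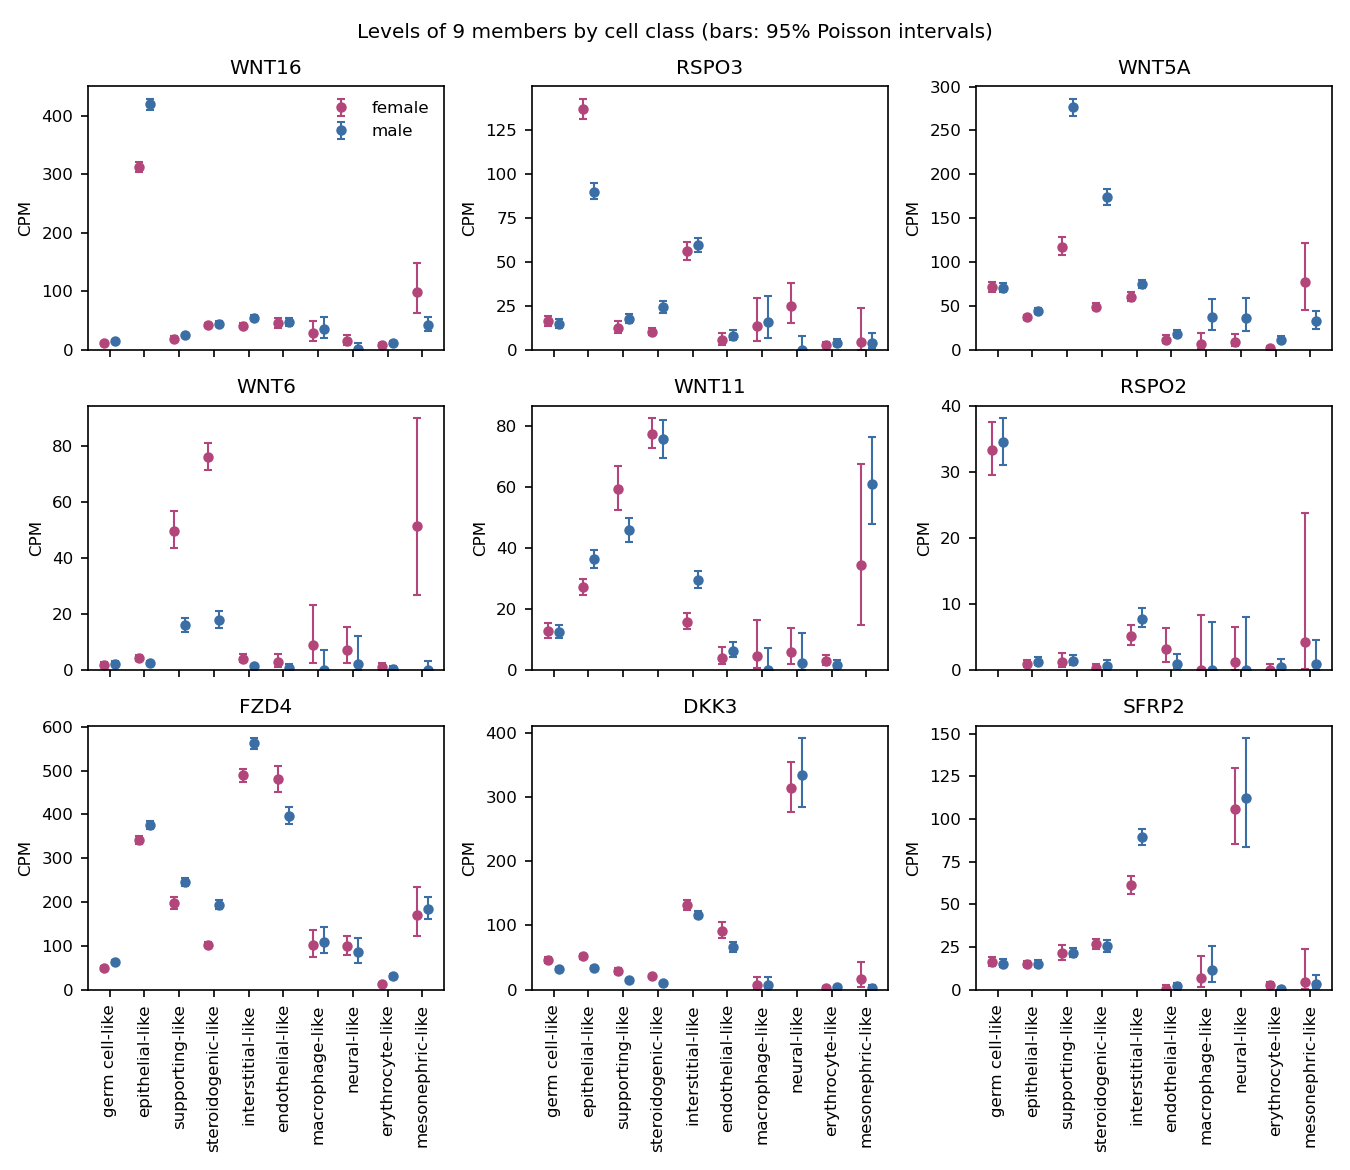
Levels in CPM of 9 members in the 10 classes, female left of male in each pair, with exact 95% Poisson intervals that cover counting error only. WNT16 and RSPO3 peak in epithelial-like, WNT5A in supporting-like, WNT6 and WNT11 in steroidogenic-like, RSPO2 in germ cell-like, FZD4 in interstitial-like, and DKK3 and SFRP2 in neural-like cells.

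Of the Frizzled receptors, FZD4, which also serves the non-WNT ligand Norrin in mammalian vessels, had 489 CPM in female and 562 CPM in male interstitial-like cells (log2 fold change 1.69 ± 0.19, adjusted p = 8.2e-06, edgeR) and 481 and 398 CPM in endothelial-like cells (1.55 ± 0.19, adjusted p = 1.6e-05). The 2 classes overlapped in their counting intervals in the female library (475 to 504 and 452 to 510 CPM) but not in the male one, so their order was not fixed. Epithelial-like cells followed with 342 CPM (female) and 375 CPM (male), and their cluster 3 had 518 and 535 CPM, near the interstitial-like levels. In germ cell-like cells FZD4 fell to 49.4 CPM (female) and 62.3 CPM (male), a log2 fold change of -2.11 ± 0.26 (adjusted p = 7.1e-06). FZD6 was highest in steroidogenic-like cells, with 73.8 and 47.9 CPM (1.86 ± 0.15, adjusted p = 1.8e-06), and 12.5 and 13.4 CPM in interstitial-like cells, where it was called lower. FZD7 was called higher in interstitial-like cells, at 194 CPM (female) and 100.4 CPM (male, 1.5 ± 0.20, adjusted p = 6.6e-05). The next female level of FZD7 was 114 CPM, in steroidogenic-like cells. In the male library mesonephric-like barcodes had 101.2 CPM and steroidogenic-like cells 90.1 CPM, so there the interstitial-like class did not stand apart. FZD1 never passed 5.57 CPM and was called higher in the interstitial-like and steroidogenic-like classes. FZD3, at 38.3 to 79.8 CPM in the 4 gonadal somatic classes, was the only tested member called higher in no class, and with the library as a block it passed in all 4 (adjusted p between 0.0035 and 0.0083, against 0.050 to 0.067 without).

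Of the 4 R-spondins, RSPO2 was highest in germ cell-like, RSPO3 in epithelial-like and RSPO4 in male mesonephric-like cells. RSPO2 had 33.4 CPM (female) and 34.5 CPM (male) in germ cell-like cells, against 5.12 and 7.78 CPM in interstitial-like cells, the next class, and at most 4.28 CPM elsewhere. It was called higher with an adjusted p of 4.3e-08 (edgeR), and its fitted log2 fold change of 5.07 ± 0.35 rests partly on macrophage-like sums with 0 UMIs and is no bound. After thinning, 6.30% of germ cell-like barcodes had an RSPO2 UMI, against 0.20% of erythrocyte-like ones (38.5% and 0.40% before, at medians of 17044 and 18651 UMIs). RSPO3 was highest in epithelial-like cells, with 137 CPM (female) and 89.9 CPM (male, log2 fold change 2.88 ± 0.28, adjusted p = 4.0e-06), and second in interstitial-like cells with 56.1 and 59.6 CPM. Among epithelial-like clusters it ran from 88.3 and 46.6 CPM in cluster 1 to 250 and 185 CPM in cluster 3, the same cluster where WNT2B was highest. RSPO1, the R-spondin of mouse ovary formation, was low everywhere, at 3.54 CPM in female and 2.35 CPM in male epithelial-like cells (called higher, adjusted p = 0.0057), and no more than 4.28 CPM in any sum, a value of 1 UMI in the female mesonephric-like barcodes. RSPO4 had 140 UMIs in the 100 male mesonephric-like barcodes (115 CPM) and 0 UMIs in the 24 female ones, with at most 6.48 CPM in any other class. RSPO4 was taken up here after its values were seen. Its call in the mesonephric-like class (adjusted p = 4.7e-05, edgeR) rests on the male library, since in the female library alone the fitted log2 difference was -1.18.

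LGR4, the broadly used R-spondin receptor, was highest in mesonephric-like barcodes (85.7 CPM female, 64.2 CPM male), followed by interstitial-like cells (60.5 and 54.3 CPM). The mesonephric-like class held only 24 female and 100 male barcodes and was not the same population in both libraries, so this order is not firm. LGR4 had 42.9 to 60.5 CPM in the epithelial-like, supporting-like, steroidogenic-like, interstitial-like and endothelial-like classes, and 38.8 and 41.0 CPM in neural-like cells. LGR4 was called lower in germ cell-like cells (32.8 CPM female, 22.4 CPM male, log2 fold change -0.81 ± 0.14, adjusted p = 2.2e-04, edgeR). LGR5 was rare. Its highest level was in endothelial-like cells (7.12 CPM female, 5.96 CPM male, adjusted p = 5.5e-04), followed by germ cell-like cells (2.76 and 2.17 CPM, adjusted p = 0.024, against 0.13 by DESeq2), and it was at most 1.65 CPM in every other class.

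The secreted inhibitors were led by DKK3 and SFRP2 in neural-like cells. DKK3, a divergent family member that does not act like DKK1, reached 314 CPM (female) and 335 CPM (male) in neural-like cells (log2 fold change 3.73 ± 0.25, adjusted p = 2.5e-08, edgeR), followed by interstitial-like cells (132 and 117 CPM, 2.10 ± 0.25, adjusted p = 1.7e-05) and endothelial-like cells (92.1 and 66.0 CPM, 1.52 ± 0.28, adjusted p = 6.5e-04). After thinning, 30.9% of neural-like barcodes held a DKK3 UMI, against 1.40% of erythrocyte-like ones (79.8% and 4.61% before). SFRP2 followed the same order in its first places, with 106 and 112 CPM in neural-like cells (3.25 ± 0.25, adjusted p = 8.5e-08) and 61.2 and 89.3 CPM in interstitial-like cells (2.57 ± 0.21, adjusted p = 2.8e-07), but it fell in endothelial-like cells to 0.445 and 2.06 CPM (-3.57 ± 0.43, adjusted p = 1.3e-05). SFRP5 had 27.0 CPM (female) and 32.4 CPM (male) in neural-like, 27.0 and 19.7 CPM in steroidogenic-like and 22.4 and 21.7 CPM in epithelial-like cells, and it was called lower in germ cell-like (0.958 and 1.81 CPM) and endothelial-like cells. SFRP4 was a rare gene of germ cell-like cells (2.76 CPM female, 3.08 CPM male, adjusted p = 2.4e-04) and interstitial-like cells (1.78 and 1.70 CPM, adjusted p = 0.0033). SFRP4 passed the filter on low counts through its germ cell-like sums alone, so its call there adds nothing to the levels. SFRP1 reached 119 CPM in male mesonephric-like barcodes, against 8.57 CPM in the female ones, and 39.0 CPM (female) and 47.6 CPM (male) in interstitial-like cells.

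LEF1 and AXIN2, the textbook targets of canonical signalling, were both called higher in the supporting-like and steroidogenic-like classes. LEF1 had 355 CPM in female and 271 CPM in male supporting-like cells (log2 fold change 1.47 ± 0.27, adjusted p = 0.0017, edgeR), but 301 and 252 CPM in epithelial-like and 276 and 267 CPM in steroidogenic-like cells, so these 3 classes were near each other. AXIN2 had 54.7 and 39.5 CPM in supporting-like cells (1.29 ± 0.27, adjusted p = 0.0042) and 39.3 and 29.7 CPM in steroidogenic-like cells (0.87 ± 0.27, adjusted p = 0.034), and fell to 5.34 and 8.25 CPM in endothelial-like cells (-1.58 ± 0.38, adjusted p = 0.0056). AXIN1, the constant scaffold, was called higher in the 4 gonadal somatic classes by 0.54 to 0.76 on the log2 scale. The TCF factors divided the classes differently: TCF7L1, mainly a repressor, had 166 CPM (female) and 187 CPM (male) in interstitial-like cells (1.59 ± 0.10, adjusted p = 2.1e-08) and 29.2 and 34.1 CPM in germ cell-like cells (-1.37 ± 0.13, adjusted p = 4.8e-07), whereas TCF7L2 was highest in germ cell-like cells, with 155 and 145 CPM (0.74 ± 0.13, adjusted p = 1.8e-04). For TCF7L1, epithelial-like cells lay near the interstitial-like ones, with 144 CPM (female) and 167 CPM (male), and 164 and 187 CPM in their cluster 1.

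In erythrocyte-like cells, where HBAD alone took 294257 and 303869 CPM, WNT16 was the only member called higher (8.48 CPM female, 11.3 CPM male, log2 fold change 0.84 ± 0.26, adjusted p = 0.027, edgeR). Free RNA in barcodes of at most 100 UMIs held WNT16 at 83.2 and 84.1 CPM, and the call was lost with free RNA subtracted (adjusted p = 0.11) and turned round without TMM scaling (-1.98), so the erythrocyte-like calls depend on scaling. Without TMM the median of all genes shifted by -2.77 in that class and by 0.17 to 0.52 in the other 9. In macrophage-like cells, at a median of 3652 (female) and 4093 (male) UMIs per barcode, 8 members were called lower, among them DKK3 at 6.75 and 7.84 CPM, and none higher. With free RNA subtracted, WNT11, FZD4, LEF1 and DKK3 were no longer called there (adjusted p 0.050 to 0.12).

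Of 62 other WNT pathway genes listed (co-receptors, scaffold and planar polarity genes and targets), 45 were in the files by symbol and 43 were tested. In supporting-like cells 16 of the 43 were called higher and 1 lower (9.48% and 4.57% of all genes). The higher and lower calls numbered 11 and 6 in interstitial-like (15.9% and 6.86%), 11 and 5 in neural-like (14.7% and 9.68%), 8 and 3 in epithelial-like (13.1% and 6.36%) and 6 and 5 in steroidogenic-like cells (12.5% and 6.43%). In germ cell-like cells 10 were higher and 10 lower, where 33.6% and 21.5% of all genes were. The counts were 5 and 5 in endothelial-like (16.8% and 10.4%), 1 and 4 in macrophage-like (12.4% and 8.26%), 2 and 7 in erythrocyte-like (13.0% and 9.45%) and 4 and 0 in mesonephric-like cells (9.62% and 4.22%). APCDD1, a membrane-bound WNT inhibitor, had 368 CPM in female and 184 CPM in male supporting-like cells (log2 fold change 2.36 ± 0.38, adjusted p = 7.4e-04, edgeR). GPC3, a glypican that binds WNTs, had 103 and 120 CPM in epithelial-like cells (2.51 ± 0.19, adjusted p = 4.5e-07), PRICKLE1, a planar polarity gene, 104 and 94.8 CPM in interstitial-like cells (2.65 ± 0.19, adjusted p = 8.1e-08), and PRICKLE2 37.5 and 34.3 CPM in germ cell-like cells (2.34 ± 0.33, adjusted p = 2.6e-05). KREMEN1, a DKK1 receptor, had 67.0 and 75.6 CPM in neural-like cells (3.67 ± 0.29, adjusted p = 1.4e-07).

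The germ cell-like class was then split by the summed level of 4 pluripotency-associated genes (NANOG, SOX3, PRDM14 and TFAP2C). Barcodes with at least 500 CPM of them are called NANOG-high here (154 female, 185 male), and the other germ cell-like barcodes numbered 327 and 524, with 139 barcodes of either kind between 250 and 1000 CPM. This compares germ cell-like barcodes with high and with lower levels of these pluripotency-associated genes, over 4 sums. Of the 21 members tested, 6 were called higher in NANOG-high barcodes and 4 lower, beside 18.7% and 19.6% of 11548 genes (38.4% in either direction), so the share of called members was near that of all genes.

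Higher in NANOG-high barcodes were DKK3, WNT11, LGR4, RSPO3, SFRP2 and AXIN1. DKK3 had 97.2 CPM in female and 79.3 CPM in male NANOG-high barcodes, against 20.2 and 13.9 CPM in the other germ cell-like barcodes (log2 fold change 2.13 ± 0.23, adjusted p = 0.0022, edgeR). WNT11 had 27.3 and 24.95 CPM, against 4.92 and 7.59 CPM (1.78 ± 0.27, adjusted p = 0.0054). LGR4 had 60.5 and 44.1 CPM, against 18.4 and 13.8 CPM (1.45 ± 0.24, adjusted p = 0.0069). In all 3, both NANOG-high values lay above both others. RSPO3 had 21.7 and 32.0 CPM, against 13.3 and 8.09 CPM (1.09 ± 0.33, adjusted p = 0.044), and SFRP2 25.5 and 24.3 CPM, against 11.7 and 11.6 CPM (0.84 ± 0.20, adjusted p = 0.020). AXIN1 had 57.7 and 47.0 CPM, against 26.4 and 25.8 CPM (0.75 ± 0.16, adjusted p = 0.017). By DESeq2, the adjusted p was 0.056 for RSPO3 and 0.10 for SFRP2, and after thinning to 2000 UMIs the edgeR value was 0.079 for WNT11 and 0.13 for AXIN1, with no value for SFRP2.

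Lower in NANOG-high barcodes were SFRP1, WNT5A, LEF1 and FZD3. SFRP1 had 1.75 CPM in female and 5.76 CPM in male NANOG-high barcodes (5 and 18 UMIs), against 27.2 and 31.5 CPM in the other germ cell-like barcodes (log2 fold change -3.19 ± 0.41, adjusted p = 0.0034, edgeR). WNT5A had 35.3 and 43.8 CPM, against 90.6 and 81.5 CPM (-1.37 ± 0.16, adjusted p = 0.0027). LEF1 had 100.3 and 82.9 CPM, against 130 and 124 CPM (-0.73 ± 0.13, adjusted p = 0.0096), and FZD3 29.0 and 22.7 CPM, against 34.4 and 36.9 CPM (-0.72 ± 0.18, adjusted p = 0.025, against 0.078 by DESeq2 and 0.084 without TMM). After thinning, the adjusted p of LEF1 was 0.091. In each of the 4, both NANOG-high values lay below both others. RSPO2, the germ cell-like R-spondin, had 33.6 and 39.0 CPM in NANOG-high and 33.4 and 32.7 CPM in the other germ cell-like barcodes (-0.12 ± 0.16, adjusted p = 0.58), which gives no call. The log2 fold changes between the germ cell groups are scaled by TMM and the CPM are not, so they can differ. Without TMM that of RSPO2 was 0.14. With the library as a block, 3 more members passed: WNT16 at -1.13 (adjusted p = 0.0080), TCF7L1 at 0.59 (0.0082) and TCF7L2 at 0.30 (0.025). Without TMM 8 members were called higher and 3 lower.

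**Figure D4:**
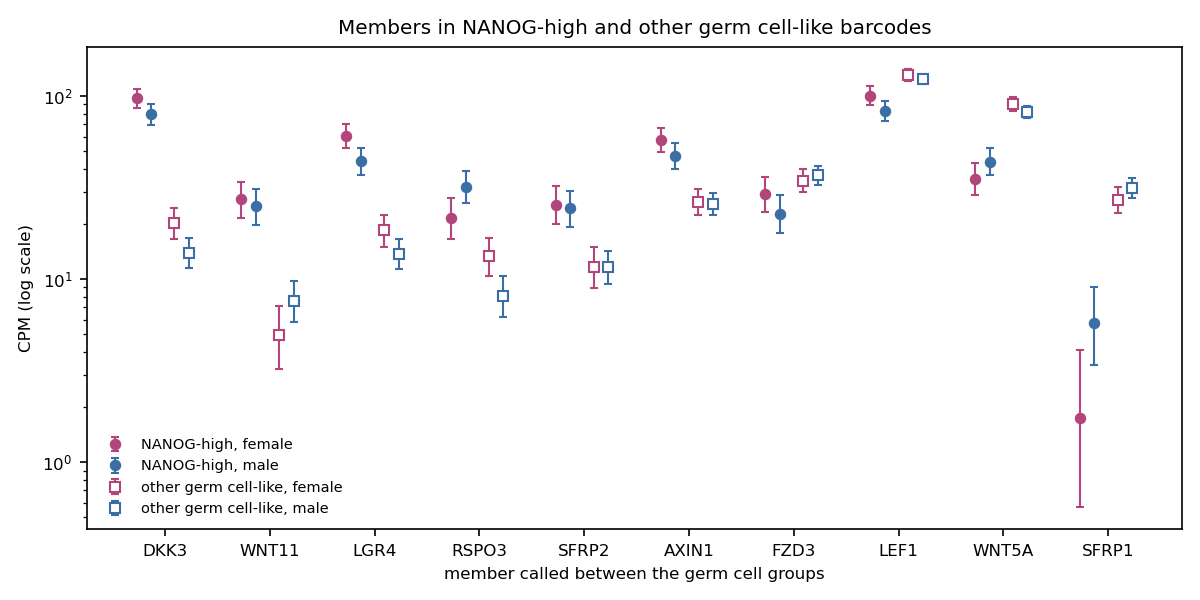
CPM on a log scale of the 10 members called between NANOG-high (filled circles, left) and other germ cell-like barcodes (open squares, right) in the female and male library, with exact 95% Poisson intervals. The filled points lie above the open ones from DKK3 to AXIN1 and below them from FZD3 to SFRP1, in both libraries.

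With 1 library per sex, female and male levels within a class have no test. They are given with exact 95% binomial intervals of the split of the UMIs, which cover counting error only, for 8 classes with at least 50 barcodes in both libraries. Of 174 pairs of a member and a class with at least 20 UMIs, 19 had an interval wholly beyond 1.5-fold (4.78% of all gene and class pairs did), from 10 members, with female higher in 9 and male higher in 10. By class, 3 members were higher in female and 3 in male steroidogenic-like cells (4.37% and 5.34% of all genes), 3 and 2 in supporting-like (3.02% and 4.77%), 3 and 1 in interstitial-like (1.37% and 2.67%), 0 and 1 in macrophage-like (0.289% and 0.912%) and 0 and 3 in erythrocyte-like cells (0.286% and 2.51%). Over the whole class, no member was beyond 1.5-fold in germ cell-like (0.625% and 2.96%), epithelial-like (1.22% and 2.95%) or endothelial-like cells (0.574% and 1.66%). Within epithelial-like clusters some ratios were, in either direction. WNT11 had 9.44 CPM (female) and 24.9 CPM (male) in cluster 3 (log2 ratio -1.40, -1.95 to -0.86). RSPO3 had 88.3 and 46.55 CPM in cluster 1 (0.92, 0.74 to 1.11), and DKK3 53.9 and 26.5 CPM in cluster 7 (1.03, 0.66 to 1.40).

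The widest ratios were those of WNT6, WNT10A and WNT5A. WNT6 in steroidogenic-like cells had 76.2 CPM (female) and 17.7 CPM (male), a log2 ratio of 2.11 (1.85 to 2.37), and WNT10A there had 47 and 4 UMIs, a log2 ratio of 2.87 (1.42 to 4.81). Most female steroidogenic-like barcodes lay in cluster 4 (771 of 1242) and the male ones in cluster 5 (387 of 783, against 2 female), so the clusters were also read separately. In the steroidogenic-like barcodes of clusters 4, 12 and 15, WNT6 had 106 and 23.7, 58.0 and 12.5, and 56.6 and 12.2 CPM in the female and male library, log2 ratios of 2.15, 2.21 and 2.21, as large as in the class. In cluster 8 (28 female and 30 male barcodes) it had 6 UMIs in each library, 27.5 and 27.0 CPM, and the male cluster 5 had 20.8 CPM. WNT5A in steroidogenic-like cells had 48.9 CPM (female) and 174 CPM (male), a log2 ratio of -1.83 (-1.97 to -1.70). By cluster it was not of 1 direction: 86.9 and 218 CPM in cluster 12 and 42.7 and 125 CPM in cluster 15 (log2 ratios -1.32 and -1.55), but 50.6 and 34.6 CPM in cluster 4 (0.55, interval 0.12 to 0.998), with intervals across 0 in clusters 8 and 19, while cluster 5, nearly all male, had 273 CPM in the male library. Over clusters with at least 20 barcodes of the class in both libraries, its log2 ratio was -0.78 (-0.98 to -0.58).

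In supporting-like cells the class values differed as well, but cluster 4, which held 128 of the 490 female barcodes, has more steroidogenic than supporting markers among its 10 leading genes, and cluster 5 held 526 of the 1151 male barcodes and no female one. The supporting marker CYP19A1 was itself first among the leading genes of cluster 4. Clusters 8 and 12, which both libraries filled, are therefore given separately. Cluster 12 had cell division genes such as CDC20 and UBE2C among its 10 leading genes. It also held 166 steroidogenic-like barcodes beside 250 supporting-like ones. WNT5A, with 118 CPM (female) and 276 CPM (male) in the class, had 134 and 136 CPM in cluster 8 (log2 ratio -0.01, -0.25 to 0.22) and 176 and 282 CPM in cluster 12 (-0.68, -0.93 to -0.43). It had 370 CPM in male cells of cluster 5 and 60.2 CPM in female cells of cluster 4. WNT6, with 49.6 and 15.9 CPM in the class, had 10.0 and 9.64 CPM in cluster 8 (0.05, -0.89 to 0.97) and 30.6 and 7.48 CPM in cluster 12 (2.03, 1.05 to 3.09). In female cells of cluster 4 it had 141 CPM, from 164 of the 224 female UMIs of the class. WNT11 was not beyond 1.5-fold in the class (59.4 and 45.7 CPM), but the clusters differed. It had 28.4 and 62.4 CPM in cluster 8 (-1.13, -1.61 to -0.68) and 35.5 and 43.2 CPM in cluster 12 (-0.28, -0.90 to 0.31). In female cells of cluster 4 WNT11 had 134 CPM. FZD3 (38.3 and 79.8 CPM in the class) had 38.5 and 72.5 CPM in cluster 8 and 30.6 and 58.7 CPM in cluster 12, and DKK3 (28.6 and 14.3 CPM in the class) had 33.2 and 15.03 CPM and 21.7 and 11.5 CPM. WNT10A had 17 and 10 UMIs in the class. The markers themselves differed between the libraries in this class, with SOX9 at 87.5 CPM (female) and 379 CPM (male) and CYP19A1 at 83.5 and 3.28 CPM, and their part in these ratios was not tested.

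**Figure D5:**
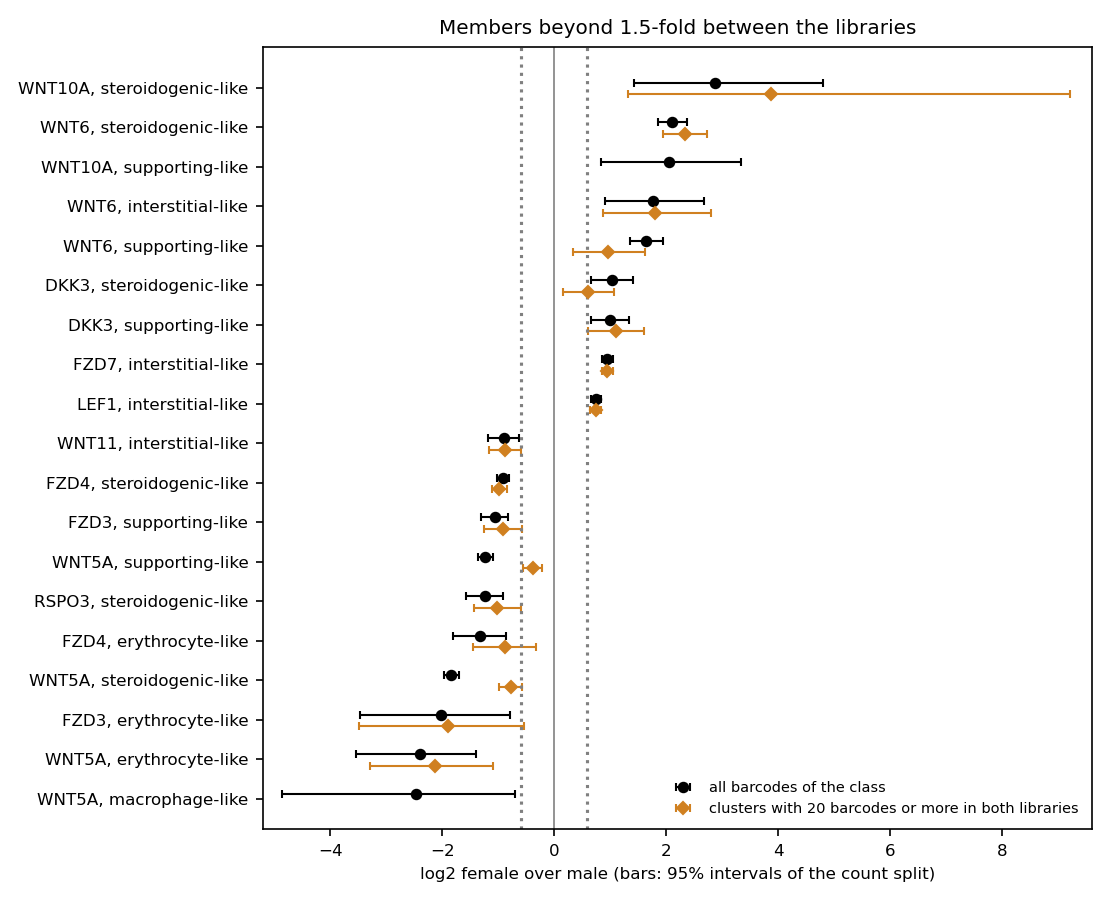
Log2 female over male ratio of the 19 pairs of a member and a class beyond 1.5-fold (dotted lines), from all barcodes of the class (black circles) and from clusters with at least 20 barcodes of the class in both libraries (orange diamonds, where there were 20 UMIs), with exact 95% intervals. For WNT5A in supporting-like cells the diamond lies at -0.38, nearer to 0 than the circle at -1.23, while FZD7, LEF1 and WNT11 in interstitial-like cells hardly move.

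In interstitial-like cells, LEF1 had 217 CPM (female) and 130 CPM (male, log2 ratio 0.75, 0.66 to 0.84), and FZD7 194 and 100.4 CPM (0.95, 0.85 to 1.05). Both ratios differed between clusters. Clusters 1 and 3 held mostly epithelial-like barcodes (1605 and 920, against 96 and 71 interstitial-like ones). Values of cluster 9, which held 496 interstitial-like barcodes, are not given here. LEF1 had 668 and 316 CPM in cluster 1 (62 female and 34 male barcodes, 1.08), 315 and 176 CPM in cluster 2 (0.84) and 80.7 and 67.8 CPM in cluster 6 (0.25). FZD7 had 257 and 83.1 CPM in cluster 1 (1.63), 277 and 101 CPM in cluster 2 (1.46) and 140 and 118 CPM in cluster 6 (0.25), but 117 and 128 CPM in cluster 3 (-0.13, -0.95 to 0.65). WNT11 had 15.8 CPM (female) and 29.5 CPM (male) in the class (-0.90, -1.18 to -0.63), with 27.7 and 47.7 CPM in cluster 2 and 8.10 and 14.6 CPM in cluster 6. WNT6 was low there, with 36 and 18 UMIs. In steroidogenic-like cells, FZD4 had 102 CPM (female) and 194 CPM (male, -0.92, -1.03 to -0.81), RSPO3 10.2 and 24.2 CPM (-1.24, -1.57 to -0.91), and DKK3 20.6 and 10.1 CPM (1.02, 0.66 to 1.40). Over clusters that both libraries filled, these ratios were -0.98 (-1.12 to -0.85), -1.02 (-1.44 to -0.59) and 0.61 (0.16 to 1.08), the last no longer beyond 1.5-fold. With classes drawn from clusters they were -1.33, -2.004 and 0.20 (-0.12 to 0.52 for DKK3), and WNT6 in supporting-like cells was at 0.52 (0.27 to 0.78).

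WNT5A, FZD4 and FZD3 were also higher in the male library in classes where they were low. WNT5A had 2.23 CPM (female) and 11.8 CPM (male) in erythrocyte-like and 6.75 and 37.2 CPM in macrophage-like cells, and 34.2 and 81.7 CPM in the free RNA. FZD4 and FZD3, the other members beyond 1.5-fold in erythrocyte-like cells, had 12.1 and 30.2 CPM and 1.56 and 6.36 CPM there, and 169 and 228 CPM and 21.3 and 40.1 CPM in the free RNA. In the other direction, WNT6 had 4.01 CPM (female) and 1.18 CPM (male) in interstitial-like cells, and 28.2 and 8.80 CPM in the free RNA. With free RNA subtracted at 5% of each sum, 18 pairs of a member and a class were beyond 1.5-fold, against 19 without, and WNT5A in macrophage-like cells, with 3 and 19 UMIs, no longer gave a ratio.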

How the data were processed

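The authors made single-cell libraries of pooled gonads with the Chromium Next GEM chemistry and counted reads with Cell Ranger 5.0.0 on the zebra finch genome bTaeGut1_v1. The deposited values are counts, integer UMI totals by gene and barcode, ahead of any cell calling or normalization, and the libraries held 98701138 (female) and 124217899 (male) UMIs. Whether reads were subsampled when the libraries were joined is not given in the sources used here. The library suffix of a barcode was read as sex by the rule for these genes and checked with Z-linked genes.

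Barcodes with at least 2000 UMIs were kept and classed by marker scores. The germ cell, endothelial, macrophage, neural, erythrocyte and mesonephric classes needed a mean z-score above 1.5. They also needed a UMI for at least 1 in 2 of the class's markers, and a barcode that passed for more than 1 of them stayed unassigned. A barcode that passed for none took the highest of 4 somatic scores, if above 0.25 and 0.25 ahead of the next. Of 64 markers, 56 were in the files. Leiden clustering (scanpy 1.11.5, 20 components, resolution 0.8) without the pathway genes gave 20 clusters. Scrublet called 301 female and 619 male barcodes as doublets, which stayed in, and leaving out the 8% with the highest scores was an alternative. UMIs summed per class and library were tested with edgeR 4.0.16 (filterByExpr, TMM, quasi-likelihood F test, R 4.3.3), and DESeq2 1.42.0 was an alternative. Standard errors are the fold change over the root of F. On simulated counts for 12725 genes of the class comparison, 200 of 200 genes changed by a log2 fold of 2 were called, and 8 unchanged ones. The simulated sums were independent, with no library effect and no other gene changed between classes. The changed genes had at least 200 UMIs and were changed in the germ cell-like class only. The simulation therefore checks that the test runs and gives no error rate for the calls made here. All sums of a library share its pooled gonads, so the library pairs them: across genes, the female minus male difference of 1 class correlated with that of another at 0.03 to 0.65 (median 0.18, 45 pairs of classes). The intervals and floors (3 UMIs) cover counting error only. All 41 members matched bTaeGut7.mat by symbol, and no sequence is printed because the sources used here held none.

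Members given in full are those with the same highest class in both libraries, at least 30 CPM in both there, an adjusted p of at most 0.05 and a log2 fold change of at least 1 (11 members), those called between germ cell groups, and those beyond 1.5-fold between libraries (10 members). The other members are given by levels. Members and lists were chosen with earlier results of these data known.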

Additional observations from a re-analysis of the deposited data

Results flagged for a closer look

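RSPO4 and SFRP1 were each called higher in the mesonephric-like class, yet their class effect had opposite signs in the 2 libraries. For RSPO4 the log2 difference from the mean of the other classes was -1.18 in the female library alone and 9.81 in the male library alone, and the female value rests on 0 UMIs. For SFRP1 it was -1.52 in the female library alone and 2.17 in the male library alone. With 1 library per sex, the difference between the libraries was not tested.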

How the results depend on the processing

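The 68 higher calls became 46 to 94 over the 11 alternatives, all within 1.5-fold, and the 39 lower calls 30 to 44, except 17 after thinning to 2000 UMIs, which leaves fewer UMIs. The 10 calls between germ cell groups became 7 to 13. Under the replicate block by library these 3 counts were 76, 42 and 13, and of the single calls only WNT11 in neural-like cells was lost (adjusted p 0.050). The 19 pairs beyond 1.5-fold between the libraries became 16 to 20, except 9 after thinning and 12 over clusters shared by both libraries, where some ratios lay nearer 0, such as that of WNT5A in supporting-like cells (-0.38, against -1.23). Of single called changes, 5 turned round: WNT16 in erythrocyte-like cells without TMM (-1.98), RSPO4 and SFRP1 in mesonephric-like cells without the male library (-1.18 and -1.52, against 9.81 and 2.17 without the female one), and FZD4 (0.59) and TCF7L1 (1.37) in neural-like cells with classes drawn from clusters. Under these cluster classes TCF7L1 was called higher in neural-like cells (adjusted p = 2.2e-07, edgeR), and FZD4 was not called (adjusted p = 0.11). The causes were not tested. A stricter margin, shared clusters, centring, leaving out the mesonephric-like class and leaving out germ cell-like barcodes near the NANOG cut were chosen after seeing the data. Classes of under 100 barcodes per library limit what can be seen of low members, and no alternative gives a replicate within a sex.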
